A study of Mus musculus with 5 samples.

Results

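The coreceptor genes of T cells, Cd4, Cd8a and Cd8b1, were followed in sorted mouse thymocytes with and without TET2 and TET3. They were chosen by symbol and are 3 of the 55487 genes in the count files, and 3 of 3 passed the filter on low counts that left 13525 genes for testing. RNA came from CD4 single positive (SP) cells. The 3 control mice were wild type (WT) and the 2 mutants were Tet2-/- Tet3 flx/flx CD4cre (Tet2/3 DKO), all C57BL/6J and, by the study's methods, a few weeks old, with 1 SMART-seq library per mouse. Tet2 was deleted in the germline, and Cre under control of Cd4 regulatory sequences deleted the floxed Tet3 in T lineage cells from the double positive (DP) stage on. TET2 and TET3 are dioxygenases that oxidise 5-methylcytosine. Since the WT mice carried neither Cre nor floxed alleles by their labels, effects of the deletions and of the transgene cannot be told apart. Cells were depleted of CD24-high thymocytes and sorted as CD4+, TCRb+, CD8- and negative for the CD1d tetramer that marks iNKT cells, so the protein products of the genes described here were themselves used to choose the cells. The CD8 antibody of the sort (clone 53-6.7) recognises the alpha chain, the product of Cd8a.

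CD4 and CD8 sit beside the T cell receptor (TCR) and bind the invariant part of the MHC molecule that presents the peptide, CD4 on MHC class II and CD8 on MHC class I. Their cytoplasmic tails carry the kinase Lck to the receptor, where it starts signalling. CD8 is built from an alpha and a beta chain or from paired alpha chains, and the beta chain needs the alpha chain to reach the cell surface. DP thymocytes make both coreceptors. Cells selected on MHC class II keep CD4 and shut off the Cd8 genes, a choice that needs the transcription factor Th-POK, and cells selected on MHC class I silence Cd4 through Runx factors.

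In GRCm38 all 3 genes lie on chromosome 6. Cd4 (ENSMUSG00000023274) spans chr6:124864692-124888221 on the minus strand, Cd8a (ENSMUSG00000053977) spans chr6:71373427-71379173 on the plus strand, and Cd8b1 (ENSMUSG00000053044) spans chr6:71322788-71337494 on the plus strand, 35.9 kb before Cd8a. Tet3, the floxed gene, lies on the same chromosome, 11.98 Mb from Cd8a and 41.4 Mb from Cd4. The coding sequences are shown where they encode the tails, because the tail decides which of the chains can hold Lck. Lck is held by a Cys-any-Cys-Pro motif, whose codons are in capitals. The stretches below are 60 bases of coding sequence, read 5′ to 3′ on the coding strand from the GENCODE M21 transcripts and joined across exons. The first pair holds the motif with 24 bases on each side, and the last pair is the end of a coding sequence without the motif.
Cd4-201, chr6:124866254-124866641, minus strand: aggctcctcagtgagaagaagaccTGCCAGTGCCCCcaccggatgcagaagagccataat
Cd8a-201, chr6:71374863-71376881, plus strand: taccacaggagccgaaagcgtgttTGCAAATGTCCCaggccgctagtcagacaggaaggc
Cd8a-202, chr6:71374815-71376864, plus strand: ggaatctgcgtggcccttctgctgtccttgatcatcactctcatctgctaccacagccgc
Cd8b1-201, chr6:71332513-71336719, plus strand: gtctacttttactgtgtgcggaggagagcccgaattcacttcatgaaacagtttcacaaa

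The motif starts at codon 444 of the 457 codons of Cd4-201 and at codon 227 of the 247 codons of Cd8a-201. Cd8a-202, which lacks a 31-base exon (chr6:71375888-71375918) and ends after 222 codons, does not hold it, nor do the 213 codons of Cd8b1-201. Of 49646 protein-coding mouse transcripts with a whole number of codons, 2.12% hold the motif in frame. Counts per gene do not separate Cd8a-201 from Cd8a-202.

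Reads counted on genes came to between 23529075 and 27267031 in the WT libraries, and were fewer in Tet2/3 DKO, at 21371743 for replicate 1 and 17607089 for replicate 2. Tet3 fell, from 43.8, 45.6 and 52.5 CPM (reads scaled to a common library size) in WT to 19.98 and 13.2 CPM in Tet2/3 DKO (log2 fold change -1.503, adjusted p = 0.00121). Without WT replicate 2 or 3 its adjusted p was 0.0154 and 0.0144. Tet2 was at 54.8 ± 2.72 CPM (SD, n = 3) in WT and at 91.5 and 58.6 CPM in Tet2/3 DKO, and counts over a whole gene do not test the deletion of exons. By the labels only WT replicate 1 was female, whereas by the study's methods all mice were male. The counts of Xist were 0, 2 and 1 in WT and 744 and 0 in Tet2/3 DKO, and the summed counts of 4 Y-linked genes were 6821, 6691 and 7041 in WT, 7 in Tet2/3 DKO replicate 1 and 5101 in replicate 2. The library labelled Tet2/3 DKO replicate 1 therefore goes against the sex on its label, as does WT replicate 1, and the change of each coreceptor gene and the differences between their ratios are given with and without the former. The ranks, profile distances and shares of all genes below use all 5 libraries. With 1 Tet2/3 DKO library left, the spread between libraries is estimated from WT alone and the remaining library is assumed to vary alike. Such fits called 1312 genes without replicate 1 and 1149 without replicate 2, against 530 with all libraries, so their smaller p-values and larger counts add no support. In that library 5.70% of all reads fell outside annotated genes, against at most 3.72% in the others.

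Cd4 and Cd8b1 fell with the loss of TET2 and TET3, and Cd8a lay above its WT level without passing the test. Of all 13525 genes tested with edgeR, 3.92% passed the adjusted p threshold of 0.01 in either direction, 1.50% lower and 2.42% higher in Tet2/3 DKO. Of the coreceptor genes, 2 of 3 passed, both lower. The median log2 fold change of all tested genes was 0.0076. In bulk RNA, fewer cells that make a transcript and less transcript per cell cannot be told apart.

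Cd4 is the coreceptor that the cells were sorted for. Its counts were 16413, 17858 and 15688 in WT and 8169 and 7741 in Tet2/3 DKO. At matched library size this was 635, 752 and 572 CPM in WT and 389 and 433 CPM in Tet2/3 DKO. The groups did not overlap, and the lowest WT library, replicate 3, lay above the higher Tet2/3 DKO library, replicate 2. The mean went from 653 ± 91.7 CPM (SD, n = 3) to 411 ± 30.9 CPM (SD, n = 2), a log2 fold change of -0.67 (SE 0.121) or 1.59-fold lower, with an adjusted p of 0.00951 in edgeR. Leaving out Tet2/3 DKO replicate 1 gave a log2 fold change of -0.59 (adjusted p = 0.00425). In edgeR the call sat at the threshold. Without WT replicate 1, 2 or 3 the adjusted p was 0.0419, 0.0364 and 0.0203, with log2 fold changes of -0.69, -0.55 and -0.76. In these fits 152, 110 and 127 genes passed in all, against 530 with all libraries. The adjusted p of Cd4 was 0.0103 with edgeR's legacy moderation and 1.01e-05 with DESeq2, which called 1027 genes in all.

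Cd8b1, the gene of the CD8 beta chain, had the largest fold change of the 3 coreceptor genes, except without WT replicate 3 and with a replicate block, where that of Cd8a was larger in size (1.35 and 1.34 on the log2 scale, not past the test). Its counts were 1729, 1564 and 1967 in WT and 599 and 484 in Tet2/3 DKO. Scaled for depth, WT stood at 66.9, 65.9 and 71.7 CPM and Tet2/3 DKO at 28.6 and 27.1 CPM. The libraries of each genotype lay close together and the groups were well apart. The mean went from 68.2 ± 3.09 CPM (SD, n = 3) to 27.8 ± 1.05 CPM (SD, n = 2), a log2 fold change of -1.29 (SE 0.109) or 2.45-fold lower, with an adjusted p of 0.000168. With Tet2/3 DKO replicate 1 left out it was -1.33 (adjusted p = 3.56e-06). The call was made under each of 16 other settings, with log2 fold changes from -1.33 to -1.25 and adjusted p-values of at most 0.00347. Among the tested genes, 76 passed the threshold with a log2 fold change at or below that of Cd8b1.

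Cd8a, the gene of the CD8 alpha chain, was the lowest of the 3 in every library. Its counts were 70, 69 and 148 in WT and 121 and 155 in Tet2/3 DKO. Scaled for depth, WT stood at 2.71, 2.91 and 5.39 CPM and Tet2/3 DKO at 5.77 and 8.67 CPM. The groups did not overlap, but WT replicate 3 and Tet2/3 DKO replicate 1 differed by less than counting error, with exact Poisson 95% intervals of 4.56 to 6.33 and 4.79 to 6.89 CPM. The mean was 3.67 ± 1.50 CPM (SD, n = 3) in WT and 7.22 ± 2.05 CPM (SD, n = 2) in Tet2/3 DKO, a log2 fold change of 0.94 (SE 0.336) with an adjusted p of 0.129 in edgeR and 0.104 in DESeq2. Without WT replicate 3 the log2 fold change was 1.35 (adjusted p = 0.0671), and without Tet2/3 DKO replicate 1 it was 1.22 (adjusted p = 0.0149). Leaving out Tet2/3 DKO replicate 2 gave 0.62 (adjusted p = 0.247). None of the 16 settings brought Cd8a past the threshold of 0.01.

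Both Tet2/3 DKO libraries lay below every WT library for 2 of the 3 coreceptor genes, Cd4 and Cd8b1, as they did for 19.5% of all tested genes.

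**Figure D1:**
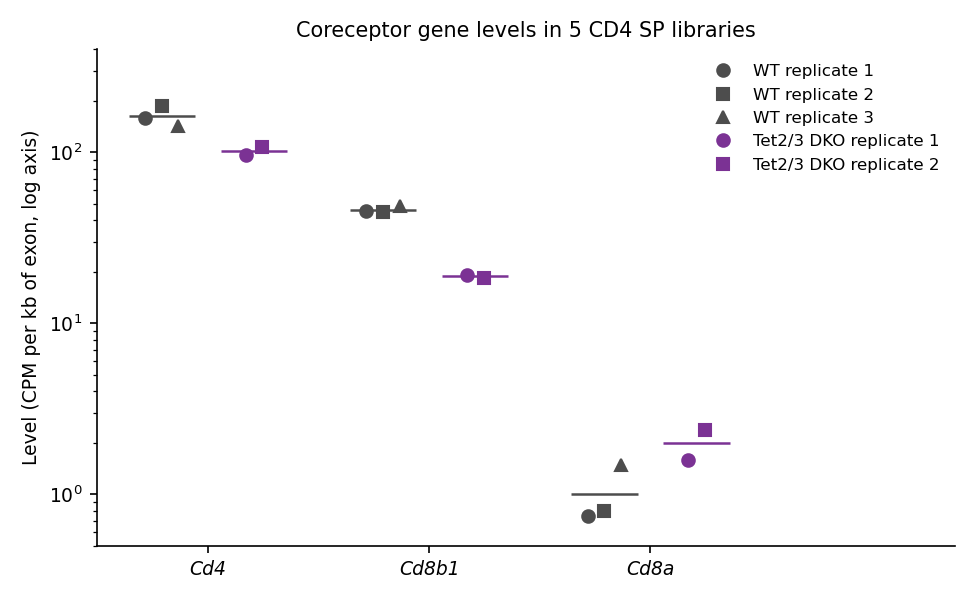
Level of each coreceptor gene in each library, in CPM per kb of exon on a log axis, with a point per library and a bar at the mean of each genotype (WT grey, n = 3; Tet2/3 DKO purple, n = 2). Cd4 lies above Cd8b1 and Cd8b1 above Cd8a in all 5 libraries, and the Tet2/3 DKO points lie lower for Cd4 and Cd8b1 and higher for Cd8a.

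To compare the genes with each other, CPM were divided by the kb of annotated exon, 4032 bases for Cd4, 3637 for Cd8a and 1483 for Cd8b1. On this scale Cd4 was at 162 ± 22.8 in WT (SD, n = 3) and at 102.0 ± 7.66 in Tet2/3 DKO (SD, n = 2). Cd8b1 was at 46.0 ± 2.09 and 18.8 ± 0.705, and Cd8a at 1.01 ± 0.411 and 1.98 ± 0.564. The order Cd4, Cd8b1, Cd8a held in every library, and neighbours in it did not overlap. Among 13510 genes ranked by this level, Cd4 held ranks 278 to 439 in WT and 720 and 621 in Tet2/3 DKO. Cd8b1 held ranks 1428 to 1555 in WT and 3035 and 3199 in Tet2/3 DKO. Cd8a held ranks 9068 to 10418 in WT and 9028 and 8148 in Tet2/3 DKO. In both genotypes Cd8b1 thus stood above the median tested gene, which was at 3.97 to 4.17 CPM per kb, and Cd8a below it, although the sort had removed cells with CD8 on their surface.

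The ratio of the 2 CD8 chain genes follows from their changes, of which that of Cd8a did not pass the test. Per kb of exon, Cd8b1 exceeded Cd8a 60.2-, 55.2- and 32.5-fold in WT replicates 1, 2 and 3, and 12.1- and 7.64-fold in Tet2/3 DKO replicates 1 and 2. On the log2 scale the ratio of Cd8a to Cd8b1 was -5.57 ± 0.481 in WT (SD, n = 3) and -3.27 ± 0.469 in Tet2/3 DKO (SD, n = 2), a difference of 2.31 or 4.95-fold. The exact two-sided permutation test over libraries gave p = 0.1, the smallest that 3 against 2 libraries allow. The p adjusted over the 3 ratios tested was 0.2 for each of them. Leaving out Tet2/3 DKO replicate 1 gave a difference of 2.64, and leaving out replicate 2 gave 1.98. As a share of the reads on both Cd8 genes, Cd8a made up 3.89%, 4.23% and 6.998% in WT, against 16.8% and 24.3% in Tet2/3 DKO. The highest WT share, in replicate 3, had an exact Clopper-Pearson 95% interval of 5.95% to 8.17%. The lower Tet2/3 DKO share, in replicate 1, had one of 14.2% to 19.7%, so the groups were apart beyond counting error. WT replicates 1 and 3 were apart by this measure too, with an interval of 3.05% to 4.89% in replicate 1. Such intervals do not measure the spread between mice.

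The ratio of Cd4 to Cd8a per kb was 210, 232 and 95.3 in WT and 60.7 and 44.9 in Tet2/3 DKO. On the log2 scale it differed by -1.68 between the genotypes (exact two-sided permutation p = 0.2), with the groups not overlapping and WT replicate 3 nearest to Tet2/3 DKO. The ratio of Cd4 to Cd8b1 was 3.49, 4.20 and 2.93 in WT and 5.01 and 5.88 in Tet2/3 DKO. It differed by 0.63 on the log2 scale (exact two-sided permutation p = 0.2), since Cd8b1 was lower by the larger factor. With Tet2/3 DKO replicate 1 left out these differences were -1.89 and 0.75. Reads on the Cd8 genes together made up 9.88%, 8.38% and 11.9% of all coreceptor reads in WT and 8.10% and 7.63% in Tet2/3 DKO. Both Tet2/3 DKO shares lay below every WT share, although the exact 95% intervals of Tet2/3 DKO replicate 1 (7.54% to 8.69%) and WT replicate 2 (7.99% to 8.78%) overlapped.

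**Figure D2:**
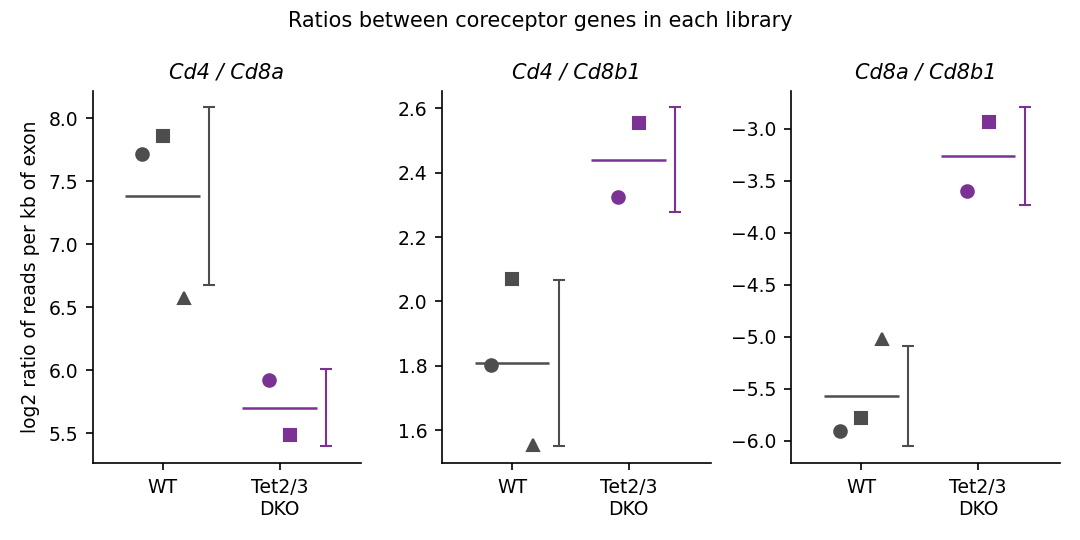
Ratio of reads per kb of exon between the coreceptor genes in each library, on the log2 scale, with a point per library (WT grey: circle replicate 1, square replicate 2, triangle replicate 3; Tet2/3 DKO purple: circle replicate 1, square replicate 2), a bar at the mean and the SD beside it. The genotypes do not overlap in any of the 3 panels, and the gap is largest for Cd8a over Cd8b1, at 2.31 between the means.

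**Figure D3:**
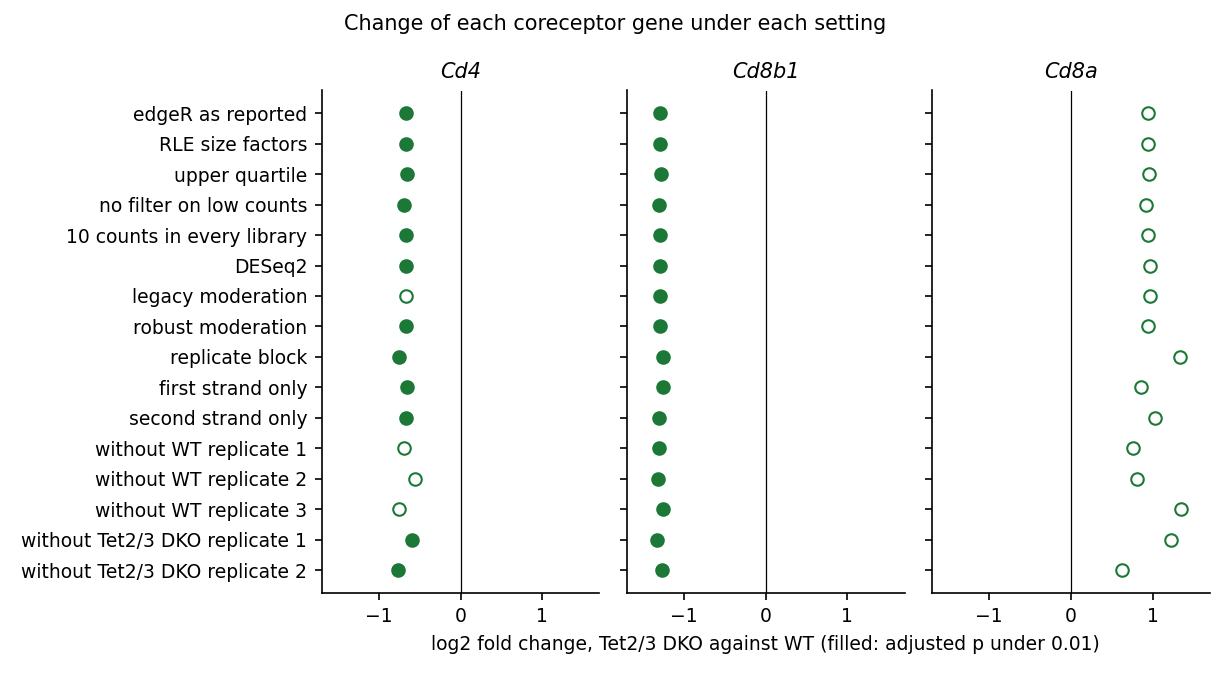
log2 fold change of each coreceptor gene (Tet2/3 DKO against WT) under the reported fit and 15 other settings, filled where the adjusted p is under 0.01. Cd8b1 is filled throughout between -1.33 and -1.25, Cd4 is open in 4 settings, and Cd8a is open throughout between 0.62 and 1.35.

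The transcription factors and chromatin proteins known to act on the coreceptor genes were described as a list of 22, all tested. Of these, 1 passed the threshold higher and 3 lower, and the median over the list was a log2 fold change of -0.11. Zbtb7b encodes Th-POK, which represses the Cd8 genes and opposes the silencing of Cd4 in MHC class II selected cells. It fell from 37.7, 51.7 and 42.0 CPM in WT to 19.1 and 19.7 CPM in Tet2/3 DKO (log2 fold change -1.17, SE 0.161, adjusted p = 0.00224). Tcf7 and Lef1, which encode TCF-1 and LEF-1, factors with roles in Th-POK expression and coreceptor control, fell by 0.56 and 0.60 on the log2 scale (adjusted p = 0.0074 and 0.00611). Myb, which acts in CD4 lineage differentiation, rose from 4.06, 3.92 and 3.32 CPM to 10.4 and 11.0 CPM (log2 fold change 1.51, adjusted p = 0.00203).

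The Runx genes, whose products bind the Cd4 silencer and the Cd8 enhancers, did not pass the test. Runx3, the family member of the CD8 lineage, was at 18.8, 21.4 and 17.9 CPM in WT and 28.7 and 22.6 CPM in Tet2/3 DKO (log2 fold change 0.41, adjusted p = 0.142). Runx1 was at 42.4 to 48.8 CPM in WT and 37.0 and 27.6 CPM in Tet2/3 DKO (log2 fold change -0.51, adjusted p = 0.0622). Gata3, needed for the CD4 lineage and for Th-POK, was lower in both Tet2/3 DKO libraries than in any WT library (log2 fold change -0.52, adjusted p = 0.0566). Satb1, a chromatin organiser used in lineage choice, had a log2 fold change of -0.54 (adjusted p = 0.0164 in edgeR and 0.000101 in DESeq2). Ets1, the deacetylase gene Hdac1 and Ikzf1, which encodes Ikaros, had log2 fold changes of -0.26, -0.0026 and -0.06, none past the test. With Tet2/3 DKO replicate 1 left out, 1 regulator passed higher and 6 lower, beside 1312 genes in all, and with replicate 2 left out 2 higher and 4 lower, beside 1149. Without WT replicate 2 or 3 none passed in either direction, and without WT replicate 1 the counts were 0 higher and 1 lower, when 110, 127 and 152 genes passed in all. In these fits the adjusted p was 0.00806 to 0.0198 for Zbtb7b, 0.0229 to 0.0478 for Tcf7, 0.0373 to 0.0404 for Lef1 and 0.0167 to 0.0227 for Myb.

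Of the 17 signalling partners of the coreceptors and the TCR, none rose and 2 fell, and the median was a log2 fold change of -0.13. These 2 were Cd5 and Cd6, linked surface receptors that bind in trans and dampen TCR signalling. Cd5 fell from 895, 941 and 886 CPM to 404 and 344 CPM (log2 fold change -1.28, adjusted p = 8.59e-05), and Cd6 from 1089, 1084 and 965 CPM to 456 and 374 CPM (log2 fold change -1.33, adjusted p = 0.00015). Both stayed past the threshold with any 1 library left out, at adjusted p-values of at most 0.00265 for Cd5 and 0.0042 for Cd6. Lck, the kinase that the tails hold, was at 3682, 3388 and 3392 CPM in WT and 3122 and 2987 CPM in Tet2/3 DKO, a log2 fold change of -0.19 (adjusted p = 0.198). The CD3 subunit genes Cd3d and Cd3g and the phosphatase gene Ptprc (CD45), which activates Lck, had log2 fold changes of 0.14, 0.04 and -0.08, none past the test. Cd247, which encodes the zeta chain of the TCR complex, was at 752, 702 and 695 CPM in WT and 555 and 486 CPM in Tet2/3 DKO, a log2 fold change of -0.46 just short of the threshold (adjusted p = 0.0133), and the adaptor gene Lat was at -0.34 (adjusted p = 0.0641). Themis, which encodes a regulator of TCR signalling in positive selection, was at 104, 107 and 93.2 CPM in WT and 224 and 134 CPM in Tet2/3 DKO, a log2 fold change of 0.82 (adjusted p = 0.0229), without overlap of the groups. DESeq2, which called 1027 of 14859 genes in all, called 1 gene of the list higher and 3 lower. With Tet2/3 DKO replicate 1 left out none passed higher and 4 lower, beside 1312 genes in all, and with replicate 2 left out 1 passed higher and 2 lower, beside 1149.

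The ligands of the coreceptors, read in the T cells themselves, were 6 genes, of which none passed in either direction. Their median log2 fold change was 0.69. The MHC class I genes H2-K1, H2-D1 and B2m had log2 fold changes of 0.24, 0.10 and 0.32. The MHC class II genes H2-Aa, H2-Ab1 and H2-Eb1 stayed at or below 5.98 CPM in WT and 5.72 CPM in Tet2/3 DKO replicate 1, and reached 13.2, 26.5 and 8.67 CPM in Tet2/3 DKO replicate 2. When that library alone stood for the genotype, with the spread taken from WT, 3 of the 6 passed higher beside 1312 genes in all, and when replicate 1 did, 2 passed beside 1149.

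Marker lists of the cells that could carry Cd4 or Cd8 transcripts into the sort were read beside these values. DP thymocytes make all 3 coreceptors. Of their defining markers, Rag1 was at 0 counts in every library, which allows at most 0.168 CPM in the shallowest, Rag2 at no more than 1 count and Ptcra at no more than 3. Of the list of 8, 5 were tested, none passed, and the summed level was 217 to 250 CPM in WT and 173 and 202 CPM in Tet2/3 DKO. Most of this sum was Cd1d1, which encodes the molecule that presents lipids to iNKT cells, at 151, 134 and 161 CPM in WT and 142 and 101 CPM in Tet2/3 DKO, followed by the survival gene Bcl2l1 at 44.8 to 49.0 CPM in WT and 39.4 and 50.1 CPM in Tet2/3 DKO. Cd24a, which falls as thymocytes mature, was at 10.1, 9.78 and 18.6 CPM in WT and 6.82 and 6.55 CPM in Tet2/3 DKO, with its highest value in WT replicate 3, the WT library with the highest Cd8a. Dntt, a DP gene whose RNA can persist, was at 17.2 to 23.6 CPM in WT and 13.6 and 14.2 CPM in Tet2/3 DKO. The part of these levels in the Cd8b1 and Cd4 differences was not tested.

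Of 13 genes of CD8 T cells and cytotoxic cells, all tested, 7 rose and none fell, the median being a log2 fold change of 2.23, and their summed level was 541 to 610 CPM in WT and 1193 and 1577 CPM in Tet2/3 DKO. Leaving out Tet2/3 DKO replicate 1, 10 passed higher beside 1312 genes in all, and without WT replicate 1, 2 or 3 the count was 6, 5 and 5. Eomes, a T-box factor of memory and innate-like CD8 T cells, rose from 1.78, 2.06 and 2.62 CPM to 81.2 and 92.8 CPM (log2 fold change 5.32, adjusted p = 1.02e-06). Nkg7 and Cst7, both of cytotoxic granules, rose by log2 fold changes of 3.74 and 3.57, and Prf1, which encodes perforin, by 1.67. Itgae, Klrd1 and Xcl1 rose by 2.63, 2.59 and 2.23. Gzmk, at 91 counts in WT replicate 3 against 16 and 15 in the other WT libraries, had a log2 fold change of -0.88 and Crtam, an adhesion receptor gene, one of -0.35, neither past the test. Gzmb at 2.89, Ccl5 at 1.65 and Tbx21 at 1.87 were not past it either in edgeR. With DESeq2, Ccl5 and Tbx21 passed (adjusted p = 0.000815 and 9.5e-05). DESeq2 called 9 genes of the list higher, beside 1027 genes in all. Ctsw, the gene with the highest mean level of the list in each genotype, had a log2 fold change of 0.19. The part of this list in the Cd8a values was not tested.

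Among 8 genes of the CD4 helper lineage, 3 rose and 2 fell, the median being a log2 fold change of -0.57. Those that fell were Zbtb7b and Il6ra, the receptor for interleukin 6, at -0.89. Those that rose were the costimulator Icos (1.08), the folate receptor family gene Izumo1r (0.71) and the TNF family ligand Tnfsf8 (1.68). Tnfrsf4, Cd40lg and Gata3 had log2 fold changes of -1.18, -0.62 and -0.52 without passing. Without WT replicate 1, 2 or 3 none passed higher, and 1, 0 and 0 passed lower. With Tet2/3 DKO replicate 1 left out, 3 passed higher and 3 lower, beside 1312 genes in all, and with replicate 2 left out 3 higher and 5 lower, beside 1149.

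Genes of antigen-presenting cells, some of which can make CD4 or CD8 alpha chains, were read as well. Of 8 dendritic cell genes, 5 were tested and none passed. Their summed level, mostly Cd74, was 64.0 to 91.0 CPM in WT and 79.6 and 117 CPM in Tet2/3 DKO, and the defining markers Clec9a and Itgax were at no more than 2 counts in any library. Of the genes of dendritic cells that make CD8 alpha chains, Xcr1 and Batf3 had log2 fold changes of 1.47 and 3.69 (adjusted p = 0.034 and 0.0132), with 38 and 22 counts at most. Flt3, a growth factor receptor gene of dendritic cells, lay the other way at -1.64 (adjusted p = 0.126), with 33 counts at most. Of 4 macrophage genes, 3 were tested and none passed, at 8.49 to 16.0 CPM summed in WT and 26.1 and 49.7 CPM in Tet2/3 DKO, with Lyz2 at a log2 fold change of 1.76 (adjusted p = 0.0143). Of 4 B cell genes, 2 were tested and none passed, at 5.61 to 6.92 and 8.17 to 9.11 CPM summed.

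All 3 NK cell genes were tested and 2 rose, Ncr1 and Klrb1c, with summed levels of 1.81 to 2.79 CPM in WT and 9.11 and 22.7 CPM in Tet2/3 DKO. Without WT replicate 1, 2 or 3 no NK cell gene passed. Of 3 gamma-delta T cell genes, 2 rose, the receptor constant genes Tcrg-C1 and Tcrg-C2, at log2 fold changes of 4.40 and 4.32, whereas Trdc was at 0.33 (adjusted p = 0.376). The count of 2 was found with any 1 library left out. The near identity of the Tcrg constant genes makes the split of reads between them uncertain. Of 2 iNKT cell genes, 2 rose, Zbtb16, which encodes PLZF, by 3.85 and Klrb1c by 2.699. Without WT replicate 1, 2 or 3, 1 of the 2 passed. Their part in the Cd4 and Cd8 values was not tested.

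**Figure D4:**
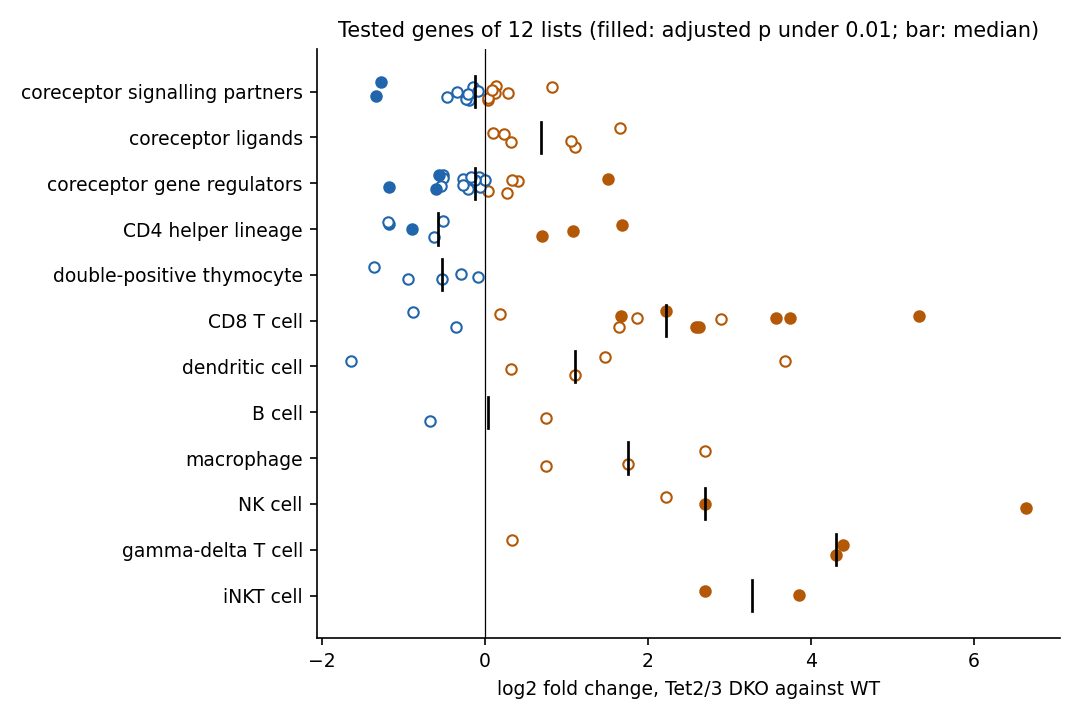
log2 fold change (Tet2/3 DKO against WT) of each tested gene of the 12 gene lists, with a row per list, filled points where the adjusted p is under 0.01 and a bar at the list's median. The medians of the regulator and signalling partner lists lie near 0 at -0.11 and -0.13, and that of the CD8 T cell list lies at 2.23.

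The genes around the coreceptor loci were read to see whether the differences extended over a neighbourhood. Within 100 kb of the coreceptor genes the annotation holds 29 other genes, of which 13 were tested. Of these, 1 passed, higher, and none lower, beside 3.92% of all tested genes in either direction. On the Cd8 side only Krcc1 and Rmnd5a were tested, with log2 fold changes of 0.02 (SE 0.0991) and 0.06 (SE 0.17), neither past the test. They flank Cd8b1 at -1.29 and Cd8a at 0.94. Smyd1, a muscle gene that lies 0.555 kb from Cd8b1, had at most 4 counts in a library. Summing the counts of the 2 strands gave the unstranded count of each coreceptor gene in every library, except for 1 read of Cd8b1 in Tet2/3 DKO replicate 1, so at most 1 read was left out for overlap with a gene on the other strand.

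On the Cd4 side the gene past the threshold was Lag3, 16.1 kb upstream of Cd4, which encodes an inhibitory receptor related to CD4 that also binds MHC class II. Its counts were 103, 104 and 135 in WT and 633 and 3297 in Tet2/3 DKO, a log2 fold change of 4.58 (SE 0.656, adjusted p = 0.00276), with the Tet2/3 DKO libraries far from each other. Lag3 thus rose while Cd4 fell. The other 10 tested genes around Cd4 ranged from -0.46 (Cdca3, adjusted p = 0.147) and -0.36 (Usp5) to 0.66 (Tpi1, adjusted p = 0.0554) and 1.04 (Spsb2, adjusted p = 0.0863). Ptms, Lrrc23, Cops7a, Mlf2, Gpr162 and Eno2 lay between at -0.09, 0.04, 0.16, 0.17, 0.33 and 0.59. Within 200 kb, 28 of 59 other genes were tested and again 1 passed. DESeq2, which called 1027 genes in all, called 2 neighbours within 100 kb higher, Lag3 and Tpi1 (adjusted p = 7.29e-06 and 0.007), and none lower. With Tet2/3 DKO replicate 1 left out, 2 neighbours within 100 kb passed higher and none lower, and with replicate 2 left out 1 passed higher and 1 lower. Without WT replicate 1, 2 or 3 none passed, the adjusted p of Lag3 being 0.0203, 0.04 and 0.0349, and without Tet2/3 DKO replicate 2 its log2 fold change was 2.75.

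**Figure D5:**
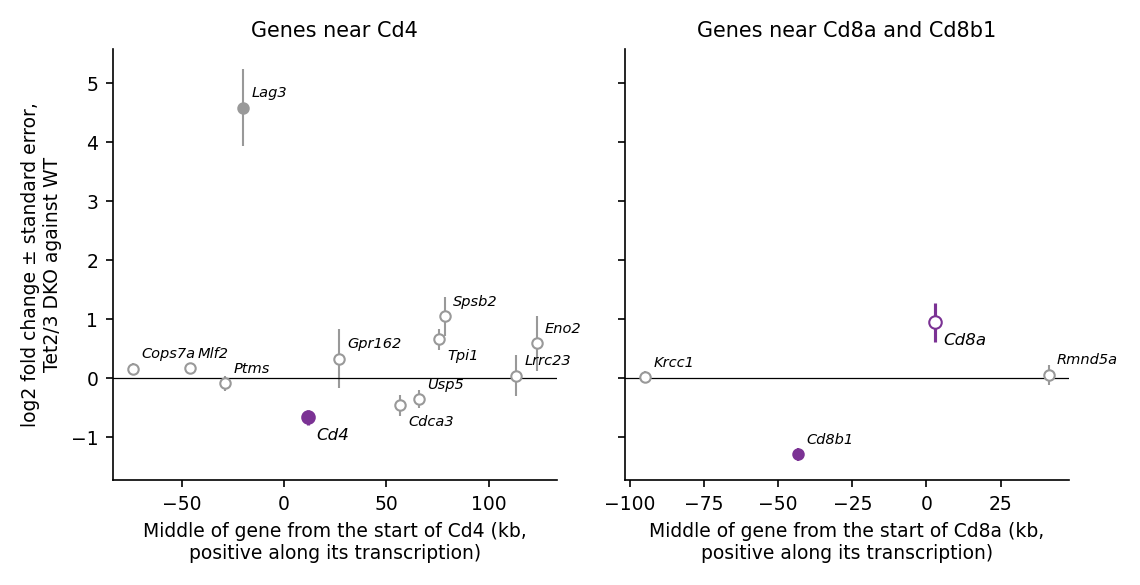
log2 fold change with its standard error for the tested genes within 100 kb of the coreceptor genes, against the distance of the gene's middle from the start of Cd4 (left) or Cd8a (right) in kb, positive along transcription. Coreceptor genes are purple and neighbours grey, filled where the adjusted p is under 0.01, and Lag3 at 4.58 stands apart from the other neighbours.

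The genes whose pattern over the 5 libraries was nearest to each coreceptor gene were named by the root mean square difference of log2 CPM, each gene centred on its own mean, among 7030 genes whose average log2 CPM was 4 or more (7031 for Cd8a). Nearest to Cd4 were Tmem63a, Arhgef1 and Pitpnm1, at 0.0203, 0.0317 and 0.0477. Arhgef1 was at 694, 842 and 649 CPM in WT and 439 and 463 CPM in Tet2/3 DKO, and like Cd4 had its highest WT value in replicate 2. Nearest to Cd8b1 were Gm15708, Tesc and Eno3, at 0.0365, 0.0478 and 0.0605. Tesc, which encodes the calcium-binding protein tescalcin, was at 283, 271 and 303 CPM in WT and 130 and 114 CPM in Tet2/3 DKO. Since these genes were picked for their likeness, their own differences between the genotypes are no separate result. Nearest to Cd8a were Wdfy1, Nipal1 and Bcl2a1d, at 0.257, 0.257 and 0.266, much farther than the nearest genes of the other coreceptors. Cd8a itself lay below the level asked of the compared genes and had only 69 to 155 reads per library. The part of these limits in its distances was not tested. Bcl2a1d, of the BCL2 family, belongs to a group of near-identical copies among which reads are uncertain. Between the coreceptor genes the same measure was 0.357 for Cd4 with Cd8b1, 0.934 for Cd4 with Cd8a and 1.18 for Cd8a with Cd8b1. This order follows from the changes of the genes given above, of which that of Cd8a did not pass the test. It is no separate result.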

How the data were processed

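The authors trimmed reads of 5 libraries with fastp 0.21.0, aligned them to mm10 with STAR 2.7.5a (annotation GRCm38.100) and deposited read counts per gene, without normalization or pooling. Reads on overlapping genes or several places were not counted. Counts without regard to strand were used here, the kit not marking strand. Symbols, positions and exon lengths came from GENCODE M21 (55141 of 55487 identifiers matched). Clonotype tables were not used.

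Genotypes were compared with edgeR 4.0.16 in R 4.3.3 (quasi-likelihood test, newer moderation, TMM, filterByExpr, Benjamini-Hochberg, threshold 0.01), with DESeq2 1.42.0, the study's tool, as an alternative. CPM used TMM sizes. Ratios took 0.5 added to each count and exact two-sided permutation tests (scipy 1.17.1). The edgeR step was tested on simulated data. Replicates are mice. Reads carry no molecular identifiers, so intervals (95%) and the floor of 3 counts cover counting error only.

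The genes and lists were chosen with earlier results of these data known. Named genes were the coreceptor genes, Tet2, Tet3, sex-linked genes, tested neighbours within 100 kb, list genes past the threshold with up to 4 others of highest level, and the 3 nearest profiles. Runx1, Runx3, Gzmk, Ccl5, Themis, Cd247, Lat, Batf3, Flt3, the remaining ligands, markers at or near 0 counts and Smyd1 were added after their values were seen.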

Additional observations from a re-analysis of the deposited data

How the results depend on the processing

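The alternatives were DESeq2, other scalings (RLE, upper quartile), no filter on low counts, 10 counts in every library, legacy or robust moderation, either strand's counts, a replicate block, a threshold of 0.05 and leaving out each library. The direction of each coreceptor gene was the same in all of them. Cd8b1 stayed past 0.01 in each, with log2 fold changes of -1.33 to -1.26 when a library was left out, and Cd8a stayed short of it, at 0.62 to 1.35. Cd4 ranged from -0.76 to -0.55 with a library left out. It lost its call without any 1 WT library (adjusted p of 0.0203 to 0.0419) and under legacy moderation (-0.67, adjusted p = 0.0103). Fits with 1 Tet2/3 DKO library take the spread from WT alone and say nothing on the stability of that call. The log2 ratio differences kept their sign, while their p could not go below 0.1 in any setting, at -2.08 to -1.44 for Cd4 to Cd8a, 0.50 to 0.76 for Cd4 to Cd8b1 and 1.98 to 2.64 for Cd8a to Cd8b1 with a library left out. The number of genes past the threshold was 530, and became 1027 with DESeq2, 1174 at 0.05 and 110 to 1312 with a library left out. The causes were not tested. Several counts of calls in the gene lists and that among the neighbours were smaller without a WT library, as given beside the results.

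Replicate numbers are shared between genotypes but the mice are different, and deviations of same-numbered libraries were not correlated (r = 0.0151 and 0.00446), so the numbers were not taken as pairs. With the replicate block the log2 fold changes were -0.75 for Cd4 (adjusted p = 0.00258), 1.34 for Cd8a (0.0433) and -1.25 for Cd8b1 (0.00191), and 359 genes passed. Depth limits Cd8a above all, with 69 to 155 reads per library.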
